A study of Mus musculus with 23 samples.

Results

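The Tc1/mariner DNA transposons were taken as every row of the repeat table with the class DNA and a family name that starts with TcMar. This gave 58 subfamilies of 1135 in the table and of 199 in the DNA class. By family, 41 were TcMar-Tigger, 8 TcMar-Tc2, 5 TcMar with no further name, 3 TcMar-Mariner and 1 TcMar-Pogo. RNA was measured in lysate of the whole spinal cord by sequencing of poly(A)-selected, strand-specific libraries. PS19 mice were heterozygous carriers of the PS19 transgene, which encodes a mutant human tau and drives it from the prion protein promoter. Controls were littermates without the transgene. There were 5 control and 5 PS19 samples at 4 months, and 6 control and 7 PS19 samples at 9 months. The labels did not state sex, or that each sample was a separate animal, so p-values measure only the spread between these samples. All values below are normalized reads, that is, reads over the size factor of the sample. They are not divided by the length or copy number of a subfamily, so they compare 1 subfamily across samples and not the expression of different subfamilies.

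Tc1/mariner elements are cut-and-paste transposons: a transposase binds the inverted repeats at the ends of the element, excises it and inserts it at a TA dinucleotide, which is duplicated. Tigger elements are the pogo-like branch and carry most of the mammalian copies, while many MER repeats, such as MER2 and MER44A, are shorter relatives without a transposase of their own that were moved by Tigger enzymes. Mariner elements include MARNA, MMAR1 and the miniature element MADE2, and the Kanga elements belong to the Tc2 branch. In mouse all of them are old, inactive copies spread through introns and intergenic DNA, and none is known to move today. The table counts reads per subfamily over all copies. Which copies or host transcripts the reads came from was not analysed here.

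Between 2984 and 23552 reads per sample were assigned to these 58 subfamilies. A read was found in all 23 samples for 40 subfamilies, while 18 were at 0 reads in at least 1 sample. MER132 (TcMar-Pogo), MamRep1161 and the TcMar row of MamRep137 had 0 reads in all 13 samples of 9 months, and 8, 7 and 4 reads in all at 4 months. MamRep137 has 2 rows, one as TcMar and one as TcMar-Tigger, and they are kept apart here. A mean of at least 10 normalized reads over all samples was required for testing, which kept 49 of the 58: 38 Tigger, 7 Tc2, 3 Mariner and, of the TcMar rows, MER121. Besides the 3 just named, MERX, DNA1_Mam, Tigger1a_Art, Kanga1d, Eulor8 and Tigger12A fell under it, with means between 3.75 and 9.32. Kept through their 4-month values were 12 further subfamilies whose mean at 9 months was below 10, so any count of changes with age over the 49 is a description only. The table holds repeats, and 0 of 14 marker genes of neurons, glia and muscle had a row, so the tissue was not checked against markers. In bulk tissue, fewer cells of a type and less RNA per cell cannot be told apart.

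The 4-month samples stood apart from each other in both genotypes. Both sets described here, replicates 1 to 3 and replicates 4 and 5, were defined from these values. The gap between them is therefore a description and not a test. Replicates 1 to 3 had 1494940 to 2459740 normalized repeat reads, against 471178 to 779835 in replicates 4 and 5 and 370990 to 539759 in the 9-month samples. For the Tc1/mariner elements the gap was wider than for repeats in general. Its median was 2.42 on the log2 scale, against 1.93 over all 920 tested repeats. It was 2.25 over 99 hAT subfamilies, the largest other group of DNA transposons. The mean log2 value of replicates 1 to 3 was the higher one in 49 of 49 tested Tc1/mariner subfamilies. The same held for 914 of the 920 repeats and for 99 of 99 hAT subfamilies. The difference was smallest for Tigger14a (0.70) and widest for MER127 (3.92). Of the 10 samples, control replicate 2 was the highest in 48 of the 49 subfamilies, and control replicate 4 was the lowest in 32. Control replicate 2 also had the highest repeat signal of the 10 (2459740), and control replicate 4 one of the lowest (507549). The same count over all repeats was not made. The main results that use 4-month samples are therefore given with and without replicates 1 to 3. Both ages were deposited together as DESeq2-normalized counts. Whether they were prepared, counted and scaled together is not stated in the sources used here. Age and any difference in preparation or counting therefore cannot be told apart.

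Summed over all 58 members, the Tc1/mariner signal was 5099 ± 588 (SD, n = 6) in control and 5407 ± 609 (SD, n = 7) in PS19 at 9 months. The ranges, 4608 to 6023 and 4458 to 6428, overlapped almost in full. At 4 months it was 14167 ± 10011 (SD, n = 5) in control and 12252 ± 6677 (SD, n = 5) in PS19. Here the spread within a genotype came from the sets named above, with 18921 ± 4243 (SD, n = 6) in replicates 1 to 3 and 4642 ± 1732 (SD, n = 4) in replicates 4 and 5. As a share of all repeat signal the order was different. Control samples gave 0.901% ± 0.218 (SD, n = 5) at 4 months and 1.26% ± 0.0781 (SD, n = 6) at 9 months, and PS19 samples 0.950% ± 0.113 (SD, n = 5) and 1.21% ± 0.0451 (SD, n = 7). Every 9-month sample (1.13% or more) was above every 4-month sample (1.09% or less). Without replicates 1 to 3, the 4-month means were 0.683% in control and 0.831% in PS19. hAT elements showed the same order, with 3.10% ± 0.371 (SD, n = 5) and 4.22% ± 0.0696 (SD, n = 6) of repeat signal in control at 4 and 9 months. Within the DNA class the Tc1/mariner share had group means between 22.04% and 22.8%, and single samples between 17.7% and 24.6%. At 4 months it was 23.5% ± 0.250 (SD, n = 6) in replicates 1 to 3 and 20.9% ± 2.12 (SD, n = 4) in replicates 4 and 5. No test was made of these sums, since the members were chosen with results known.

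**Figure D1:**
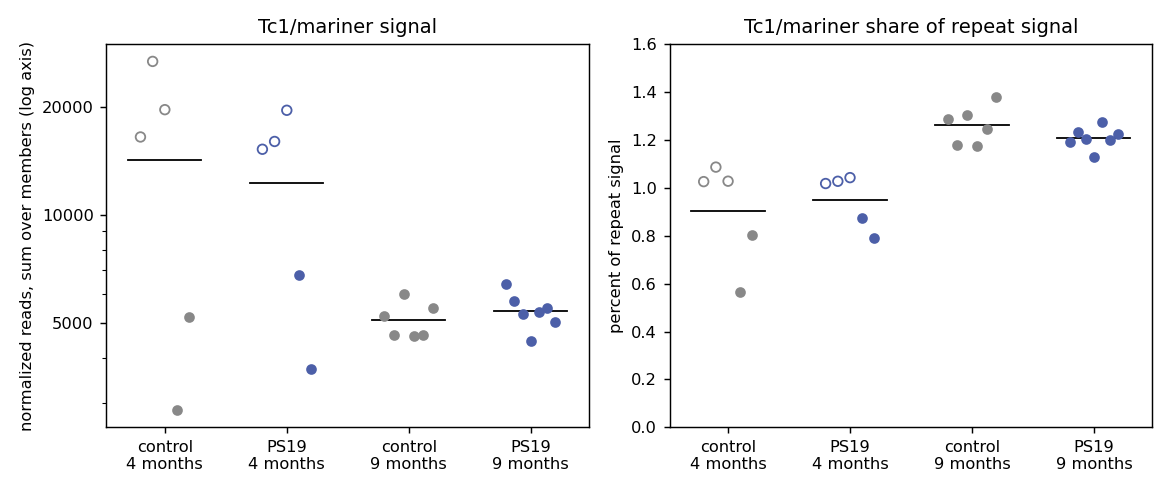
Left, normalized reads summed over the 58 Tc1/mariner subfamilies in each sample (log axis); right, the same as percent of all repeat signal; lines are group means and open circles are replicates 1 to 3 of 4 months. The open circles lie at 15214 or more on the left, above every other sample, while on the right all 9-month samples lie above all 4-month samples.

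The Tigger family supplied 88.3% to 92.1% of the Tc1/mariner signal in each sample. Which Tigger relatives supplied it differed between the ages. MER2 made up 23.1% ± 1.29 (SD, n = 5) of the Tc1/mariner reads in control at 4 months and 15.1% ± 1.25 (SD, n = 6) at 9 months. Tigger7 differed less, with 13.1% ± 2.25 (SD, n = 5) and 12.1% ± 1.11 (SD, n = 6). Tigger18a went from 0.426% ± 0.211 (SD, n = 5) to 11.3% ± 1.50 (SD, n = 6), Tigger16b from 0.515% ± 0.187 to 6.55% ± 0.488, and MER44A from 1.08% ± 0.441 to 6.11% ± 0.363 in the same groups. Tigger1 went the other way, from 4.56% ± 1.05 to 0.970% ± 0.350. These shares do not depend on the size factor of a sample. The directions were the same in PS19, where Tigger18a made up 0.426% ± 0.135 (SD, n = 5) and 10.4% ± 1.004 (SD, n = 7), and MER2 22.7% ± 1.22 and 13.9% ± 1.39. In these PS19 groups Tigger16b went from 0.578% ± 0.0501 to 5.43% ± 0.910, and MER44A from 1.21% ± 0.321 to 5.17% ± 0.610. Of the 4-month samples, replicates 1 to 3 and replicates 4 and 5 gave MER2 23.5% and 21.9%, and Tigger18a 0.520% and 0.285%. Together, Tigger18a, Tigger16b and MER44A held between 1.01% and 2.74% of the Tc1/mariner reads in the 4-month samples and between 17.3% and 26.0% in the 9-month samples.

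**Figure D2:**
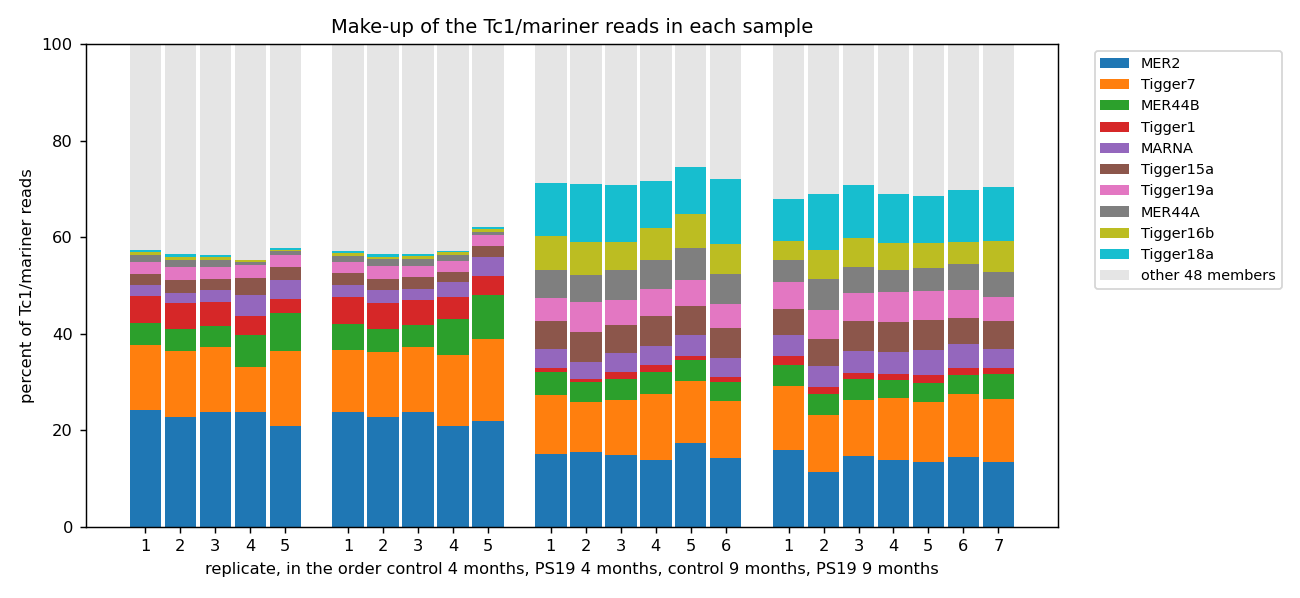
Percent of the Tc1/mariner reads held by 10 named subfamilies and by the other 48 (grey) in each sample, grouped by genotype and age. The Tigger18a, Tigger16b and MER44A segments are thin in all 10 samples of 4 months and hold 17.3% to 26.0% in the 13 samples of 9 months.

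The first comparison asked which subfamilies differ between PS19 and control spinal cord at 9 months. By limma on log2(value + 1), with Benjamini-Hochberg adjustment over all 920 tested repeats, 0 of 49 Tc1/mariner subfamilies passed an adjusted p of 0.05, where 3.37% of all tested repeats did (31 of 920). At an unadjusted p under 0.05 there were 8 of 49 (16.3%), against 17.8% of all repeats. edgeR called 0 (2.61% of all repeats) and DESeq2 called 1, MER44A (5.87% of all repeats). The median log2 difference, PS19 minus control, was 0.16, against 0.19 over all tested repeats, and 33 of 49 subfamilies (67.3%) were on the higher side, against 75% of all repeats. With TMM scaling within repeats both medians came to 0 within 0.02 (-0.01 and 0.01), with 24 of 49 on the higher side and 52.3% of all repeats.

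Tigger1, whose consensus encodes a Tigger transposase, had the smallest p. Its lowest, median and highest values were 25.1, 47.7 and 79.7 in the 6 control samples and 54.2, 72.1 and 123 in the 7 PS19 samples. PS19 values reached further up, but the groups overlapped. This was a log2 difference of 0.67 (SE 0.24, limma adjusted p = 0.146). It passed the threshold in 1 of the 13 fits that each left out a sample, at 0.82 (adjusted p = 0.0337) without control replicate 3. Over those fits its adjusted p ran from 0.0337 to 0.335.

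Tigger9b lay between 6.04 and 22.1 in control and between 9.87 and 32.0 in PS19, with a log2 difference of 0.83 (SE 0.35, adjusted p = 0.209). The limits of Tigger17a were 10.4 and 57.8 in control and 37.7 and 96.9 in PS19, with 0.74 (SE 0.31, adjusted p = 0.210). Both ranges overlapped, and the top PS19 value of each came from replicate 1. That sample was the highest of 13 in 26 of the 49 subfamilies and also had the highest repeat signal of the 9-month samples. How often it was the highest over all repeats was not counted, so the 26 is not a trait of these members. Without this sample, 30 of 49 subfamilies were on the higher side and the median was 0.10, against 0.12 over all repeats.

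On the lower side, Tigger12 had a median of 6.27 normalized reads in control (3.73 to 11.04) and 2.28 in PS19 (0.935 to 8.23), a log2 difference of -0.96 (SE 0.45, adjusted p = 0.268). Tigger16b ran from 309 to 362 with a median of 330 in control and from 251 to 352 with a median of 277 in PS19 (-0.20, SE 0.12, adjusted p = 0.356). Tigger17c lay between 8.53 and 17.8 in control and between 3.74 and 21.0 in PS19 (-0.46, SE 0.34, adjusted p = 0.465). MER44A lay between 260 and 382 in control and between 202 and 366 in PS19. Its log2 difference was -0.16 (SE 0.13, adjusted p = 0.512) by limma and -0.34 (adjusted p = 0.0194) by DESeq2, whose own size factors were taken from repeats. With TMM scaling within repeats limma gave MER44A the same -0.34 with an adjusted p of 0.0711. In both of these fits the median of all repeats was 0.01.

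The 4 subfamilies with the most reads at 9 months differed little. Tigger16b and MER44A, described above, had nearly as many reads at 9 months (4082 and 3864) as the last of the 4, Tigger15a (4106). MER2 had 767 ± 87.0 (SD, n = 6) in control and 752 ± 135 (SD, n = 7) in PS19, a log2 difference of -0.04 (95% interval -0.28 to 0.20). Tigger7 had 617 ± 70.4 and 680 ± 86.1 (0.14, interval -0.08 to 0.36; -0.04 with TMM scaling within repeats). Tigger18a had 579 ± 126 and 562 ± 67.1 (-0.03, interval -0.29 to 0.24), and Tigger15a 308 ± 29.2 and 312 ± 27.6 (0.02, interval -0.21 to 0.25). For these 4 subfamilies the interval on the deposited scale leaves out a change of 1.5-fold in either direction.

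By family, 3 of 3 Mariner and 7 of 7 Tc2 subfamilies were on the higher side in PS19, with medians of 0.31 and 0.34, and 23 of 38 Tigger subfamilies, with a median of 0.08. Of all tested repeats 75% were on the higher side, with a median of 0.19. These counts are on the deposited scale, and Kanga11a and Kanga1b of the Tc2 family had means of only 6.53 and 2.98 at 9 months. No Tc1/mariner subfamily passed the test. MARNA, the most read mariner, ran from 160 to 247 with a median of 204 in control and from 198 to 284 with a median of 254 in PS19. They differed by 0.31 on the log2 scale (SE 0.13, adjusted p = 0.216), and 0.13 with TMM scaling within repeats. MMAR1 (102 ± 24.6 and 120 ± 11.1) differed by 0.26 and MADE2 (20.9 ± 15.7 and 27.0 ± 7.10) by 0.68, with adjusted p of 0.381 and 0.352. As a share of the Tc1/mariner signal the Mariner family was at 6.33% ± 0.310 (SD, n = 6) in control and 7.36% ± 0.601 (SD, n = 7) in PS19. The ranges, 6.02% to 6.88% and 6.74% to 8.49%, overlapped slightly. In the Tc2 family, Kanga2_a had 50.9 ± 16.2 and 56.6 ± 14.4 and Kanga1a 53.7 ± 13.9 and 59.0 ± 16.4. Their differences of 0.16 and 0.12 became -0.01 and -0.05 with TMM scaling within repeats, so the 7 of 7 held on the deposited scale only.

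**Figure D3:**
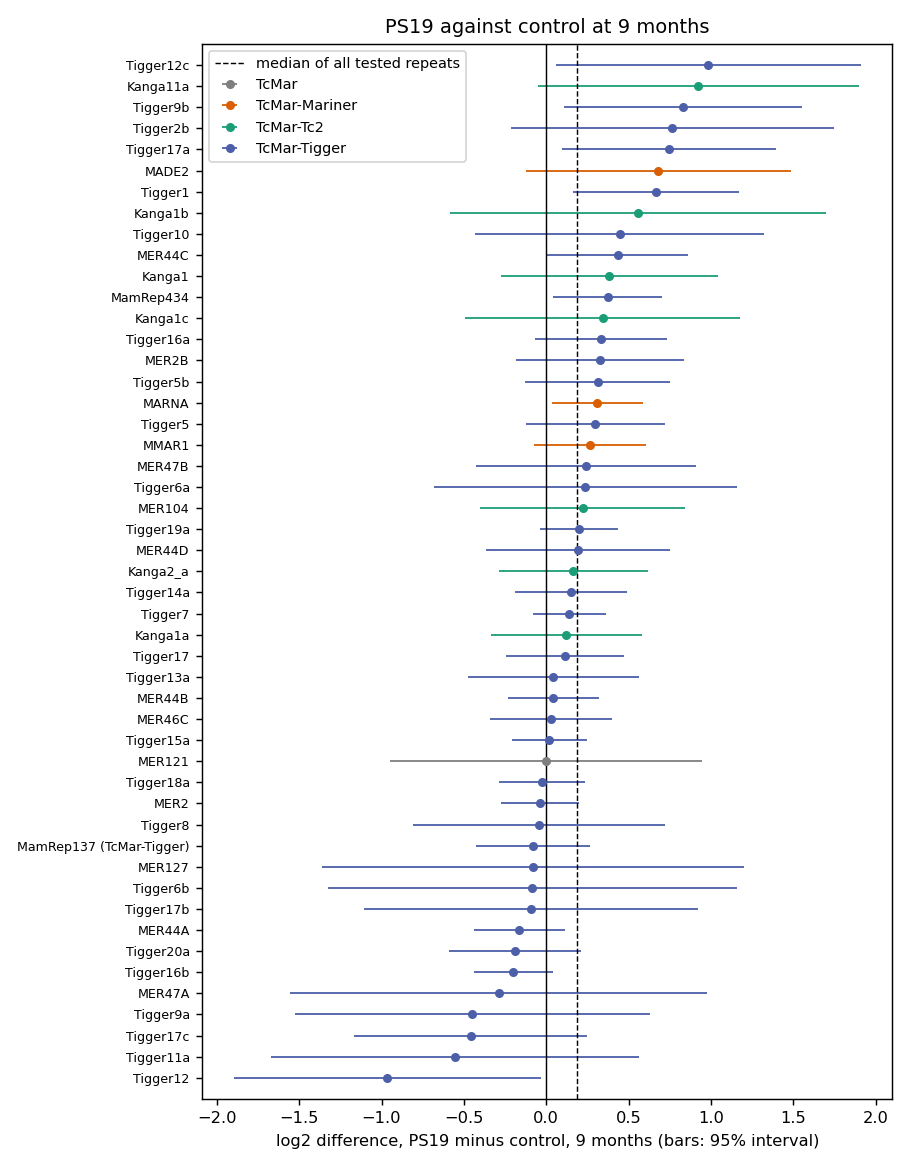
Log2 difference between PS19 and control at 9 months for the 49 tested subfamilies, with 95% intervals, coloured by family; the dashed line is the median of all tested repeats (0.19). Most intervals include 0, and those of the most read subfamilies (MER2, Tigger7, Tigger18a, Tigger15a) are among the narrowest.

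The spread between samples set what could be seen. On the log2 scale the pooled SD within a group at 9 months had a median of 0.46 over the 49 subfamilies and 0.40 over all tested repeats. In the Tigger family it ran from 0.13 for Tigger15a to 1.30 for Tigger6b, and in the Tc2 family from 0.39 for Kanga2_a to 1.004 for Kanga1b. MER121 had 0.87. Counting error alone would give 0.08 for Tigger15a, 0.48 for Tigger6b and 0.56 for Kanga1b. At 4 months the median pooled SD was 1.43, against 1.13 over all tested repeats.

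The same question was asked at 4 months. There limma called 0 of 49 subfamilies, where 0% of all tested repeats were called, and 0 of 49 had an unadjusted p under 0.05. edgeR and DESeq2 also called 0. The median log2 difference was 0.02, against -0.08 over all repeats. Its median standard error was 0.82, so a difference of 2-fold was not detectable for a typical member. When the sets named above entered the fit as a covariate, the median standard error was 0.32 and the count stayed at 0. Because the sets were defined from these same values, this smaller standard error was built in and may be too small.

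The members with the smallest p at 4 months were MADE2 (0.71), MER127 (0.80) and Kanga1a (0.62) on the higher side, and Tigger17 (-0.40), Tigger16a (-0.43) and Tigger12 (-0.45) on the lower side, all with a limma adjusted p of 0.99987. Kanga1a, a Tc2 element, read 78.2, 118, 84.5, 0 and 21.2 in control replicates 1 to 5 and 74.2, 80.8, 65.8, 39.7 and 8.13 in PS19. Replicates 1 to 3 were the high ones in both genotypes, and control replicate 4 had 0 reads, which allows up to 3. MADE2 read 51.1, 119, 66.3, 4.79 and 2.36 in control and 54.0, 59.4, 95.8, 22.7 and 11.4 in PS19. Here too the genotypes overlapped within each set, except that both PS19 values were above both control values in replicates 4 and 5. In replicates 4 and 5 alone, 0 of 49 subfamilies were called and 3 (6.12%) had an unadjusted p under 0.05, against 15 of all 920 repeats (1.63%): MER127 (2.54), Kanga1a (2.03) and MADE2 (1.96). These 3 rest on few reads in control. In replicates 4 and 5, MER127 had 0 and 2 reads in control and 14 and 7 in PS19. Kanga1a had 0 and 18 against 35 and 10, which overlap, and MADE2 had 5 and 2 against 20 and 14.

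Whether the PS19 difference itself changed between the ages was tested as an interaction over all 23 samples. limma called 0 of 49 subfamilies, where 0% of all tested repeats were called, and 0 had an unadjusted p under 0.05. edgeR and DESeq2 called 0 of 49 as well. The median of the 9-month minus the 4-month difference was 0.22, against 0.27 over all repeats. Kanga11a (1.31, SE 0.92), Tigger16a (0.76, SE 0.68) and Tigger2b (1.02, SE 0.97) led on the positive side, and Tigger17c (-0.57, SE 0.83), MER127 (-0.88, SE 1.35) and Tigger9a (-0.56, SE 0.96) on the negative side. Without replicates 1 to 3 of 4 months the count was still 0 and the median was -0.22, the opposite sign, against -0.03 over all repeats. An unadjusted p under 0.05 was found for 5 of 49 (10.2%), against 4.78% of all repeats. Each 4-month group was then replicates 4 and 5 only, and the fit shared its spread between the ages.

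The comparison of 9 with 4 months gave the wide differences. In control, 34 of 49 subfamilies passed the threshold, 3 higher at 9 months, where 6.09% of all tested repeats were called higher, and 31 lower, where 79.3% were called lower. In PS19, 32 of 49 passed, 2 higher (all repeats 6.09%) and 30 lower (all repeats 77%). Of the 49, 12 were tested only through their 4-month values, so the counts in this comparison are a description only. The median log2 difference was -1.80 in control and -1.72 in PS19, against -2.14 and -1.83 over all repeats. With TMM scaling within repeats, the medians of all repeats were -0.19 and -0.13, and the calls were 21 higher and 15 lower in control (all repeats 31.2% and 33.8%) and 19 higher and 16 lower in PS19 (31% and 30.9%). Without replicates 1 to 3 of 4 months, on the deposited scale, control had 14 higher and 13 lower (all repeats 16.3% and 50.2%), and PS19 10 higher and 17 lower (14% and 50.2%). With both changes together, control had 21 higher and 2 lower (28.7% and 17.5%), and PS19 19 higher and 3 lower (28.2% and 14.2%).

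Tigger18a and Tigger16b were called higher at 9 months in both genotypes in all 4 of these fits, as were 5.43% of all tested repeats. The agreement is not added support, since the alternatives moved the differences upward. In control the median of all repeats went from -2.14 to -0.19 with TMM scaling and to -0.96 without replicates 1 to 3. The deposited and TMM scales alone gave the same 2 members and the same 5.43%. Tigger18a read 91.8, 161, 87.7, 1.92 and 23.6 in the control samples of 4 months and 64.5, 100.3, 90.0, 18.2 and 13.004 in the PS19 samples. At 9 months its lowest, median and highest values were 447, 564 and 745 in control and 448, 568 and 665 in PS19. Every 9-month sample was above every 4-month sample, and within 4 months replicates 4 and 5 were the lowest. The log2 difference was 3.85 (SE 0.65, limma adjusted p = 8.85e-06) in control and 3.67 (SE 0.62, adjusted p = 2.00e-05) in PS19. It was 5.84 and 5.38 with TMM scaling within repeats, and 6.07 and 5.09 without replicates 1 to 3.

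Tigger16b read 94.9, 192, 123, 11.5 and 12.98 in control at 4 months and 98.4, 91.9, 118, 35.2 and 20.3 in PS19. At 9 months its lowest, median and highest values were 309, 330 and 362 in control and 251, 277 and 352 in PS19. Again no 9-month sample overlapped a 4-month sample. On the log2 scale the ages differed by 2.66 (SE 0.54, adjusted p = 6.73e-05) in control and 2.25 (SE 0.52, adjusted p = 0.000356) in PS19, and 4.65 and 3.38 without replicates 1 to 3. These 2 were the only ones of 49 members (4.08%) with every 9-month value above every 4-month value, against 3.26% of all tested repeats.

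MER44A, a non-autonomous Tigger relative, read 243, 380, 255, 15.3 and 35.4 in control at 4 months and 189, 227, 282, 88.5 and 24.4 in PS19, against 260 to 382 and 202 to 366 at 9 months. The 9-month values lay among those of replicates 1 to 3 and above all of replicates 4 and 5. Here the ages differed by 1.53 (log2, SE 0.60, adjusted p = 0.0196) in control and 1.18 (SE 0.58, adjusted p = 0.0618) in PS19. Without replicates 1 to 3 it was 3.67 (limma adjusted p = 7.40e-11) and 2.54 (adjusted p = 1.63e-07). The fit shared its spread between the ages, with only replicates 4 and 5 at 4 months, so these p-values may be far too small. Over all samples the pooled SD of MER44A was 1.74 at 4 months and 0.24 at 9 months (log2). Against replicates 4 and 5 alone, 7 of 49 members (14.3%) had every 9-month value above every 4-month value, against 10.9% of all tested repeats: Tigger18a, Tigger16b, MER44A, Tigger15a, Tigger19a, Tigger20a and the Tigger row of MamRep137. Replicates 4 and 5 were set apart by their low values, so this count is a description only. Over all repeats the share against all 4-month samples was 3.26%.

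**Figure D4:**
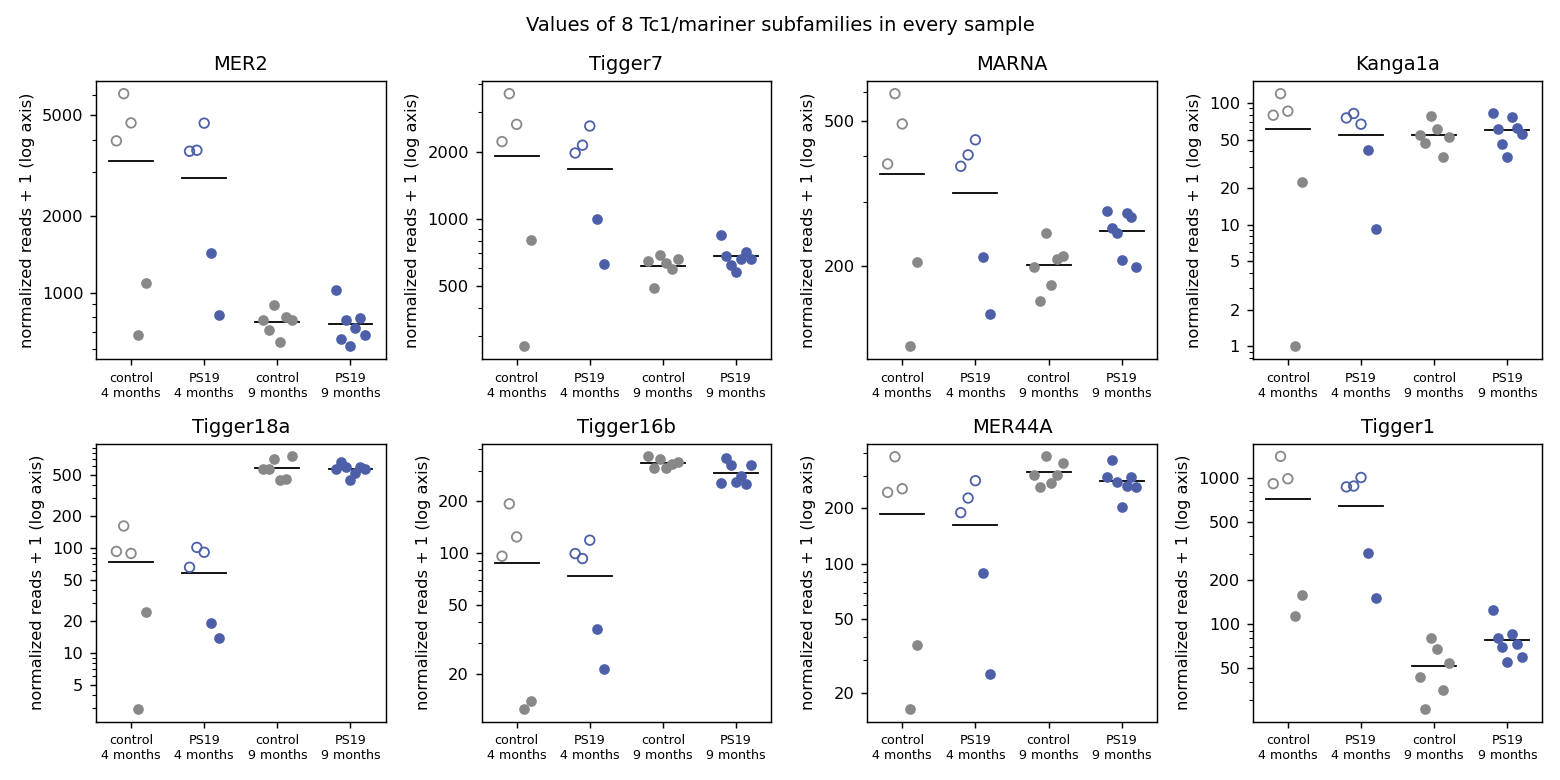
Normalized reads plus 1 (log axis) of 8 subfamilies in every sample, by genotype and age; lines are group means and open circles are replicates 1 to 3 of 4 months. Tigger18a and Tigger16b have all 9-month points above all 4-month points, MER44A only above replicates 4 and 5, and Tigger1 is lower at 9 months.

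Lower at 9 months in both genotypes, on the deposited scale, with TMM scaling within repeats and without replicates 1 to 3, were 9 members: Tigger1, Tigger6a, Tigger9b, Tigger12c, Tigger13a, Tigger17a, Tigger17c, MER2B and MER121. Of these, Tigger6a, Tigger12c and MER121 had a mean below 10 at 9 months and were tested only through their 4-month values, so they had to be lower at 9 months. Over all tested repeats the share was 21.4%. With the last pair of changes made together, Tigger13a alone remained (7.5% of all repeats). Tigger13a read 357, 673, 416, 119 and 218 in control at 4 months and 326, 357, 524, 167 and 116 in PS19, against 23.04 to 51.2 and 26.2 to 62.2 at 9 months. All 9-month samples were below all 4-month samples. The log2 difference was -2.96 (SE 0.43, adjusted p = 1.50e-06) in control and -2.69 (SE 0.41, adjusted p = 7.99e-06) in PS19, and -2.05 and -1.80 without replicates 1 to 3. Tigger14a, MER121 and Tigger12c also had no overlap, which made 4 of 49 members (8.16%), against 27.1% of all tested repeats. MER121 and Tigger12c are again among those tested only through their 4-month values.

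Tigger1 read 914, 1407, 988, 112 and 158 in control at 4 months and 869, 880, 1008, 308 and 149 in PS19, against 25.1 to 79.7 and 54.2 to 123 at 9 months. The highest PS19 sample of 9 months reached past the lowest control sample of 4 months, and all other samples were separated. The log2 difference was -3.30 (SE 0.55, adjusted p = 8.35e-06) in control and -2.77 (SE 0.53, adjusted p = 6.06e-05) in PS19. It was -1.33 and -1.04 with TMM scaling within repeats, and -1.50 and -1.51 without replicates 1 to 3. Tigger17c fell by 3.68 in PS19 (adjusted p = 9.98e-06), and by 2.42 without replicates 1 to 3 (adjusted p = 0.000273). Tigger12c and Tigger9a, with means of 4.62 and 4.68 at 9 months, also passed the filter only through their 4-month values and are described without a test. Mean values of Tigger12c were 46.3 in control and 50.6 in PS19 at 4 months, and 3.14 and 5.89 at 9 months. The log2 difference of Tigger9a was -3.15 in control and -3.70 in PS19, and -1.38 and -2.67 without replicates 1 to 3.

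The most read members changed side with the scale. MER2 read 3968, 6093, 4672, 679 and 1087 in control at 4 months, against 635 to 893 at 9 months. On the deposited scale its log2 difference was -1.67 (SE 0.46, adjusted p = 0.00152) in control and -1.66 in PS19, and with TMM scaling within repeats it was 0.32 and 0.07. It was -0.17 (adjusted p = 0.504) in control and -0.54 (adjusted p = 0.0363) in PS19 without replicates 1 to 3. Tigger7 was called lower in both genotypes on the deposited scale (-1.14 and -1.12), and higher in both with TMM scaling within repeats (0.84 and 0.61). Tigger7 stood at 0.40 and -0.23 without replicates 1 to 3, with adjusted p of 0.175 and 0.436. MARNA (-0.62 and -0.24) and Kanga2_a (-0.92 and -0.69) missed the threshold on the deposited scale and stood at 1.36 and 1.49, and at 1.04 and 1.01, with TMM scaling. In control and PS19, MMAR1 was at -0.39 and 0.09 on the deposited scale, and at 1.59 and 1.81 with TMM scaling.

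By family, on the deposited scale, 27 of 38 Tigger subfamilies were called lower and 3 higher in control, and 26 lower and 2 higher in PS19, using all 4-month samples. Of all tested repeats, control had 79.3% called lower and 6.09% called higher; for PS19 these shares came to 77% and 6.09%. In the Tc2 family 3 of 7 were called lower in each genotype, and in the Mariner family 0 of 3 in either direction, with medians of -0.51 in control and -0.24 in PS19. The 38 Tigger and 7 Tc2 subfamilies include members tested only through their 4-month values, Kanga11a and Kanga1b among them. Their family counts are therefore a description only. Of 99 hAT subfamilies, 81 were called in control in either direction (all repeats 85.4%).

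**Figure D5:**
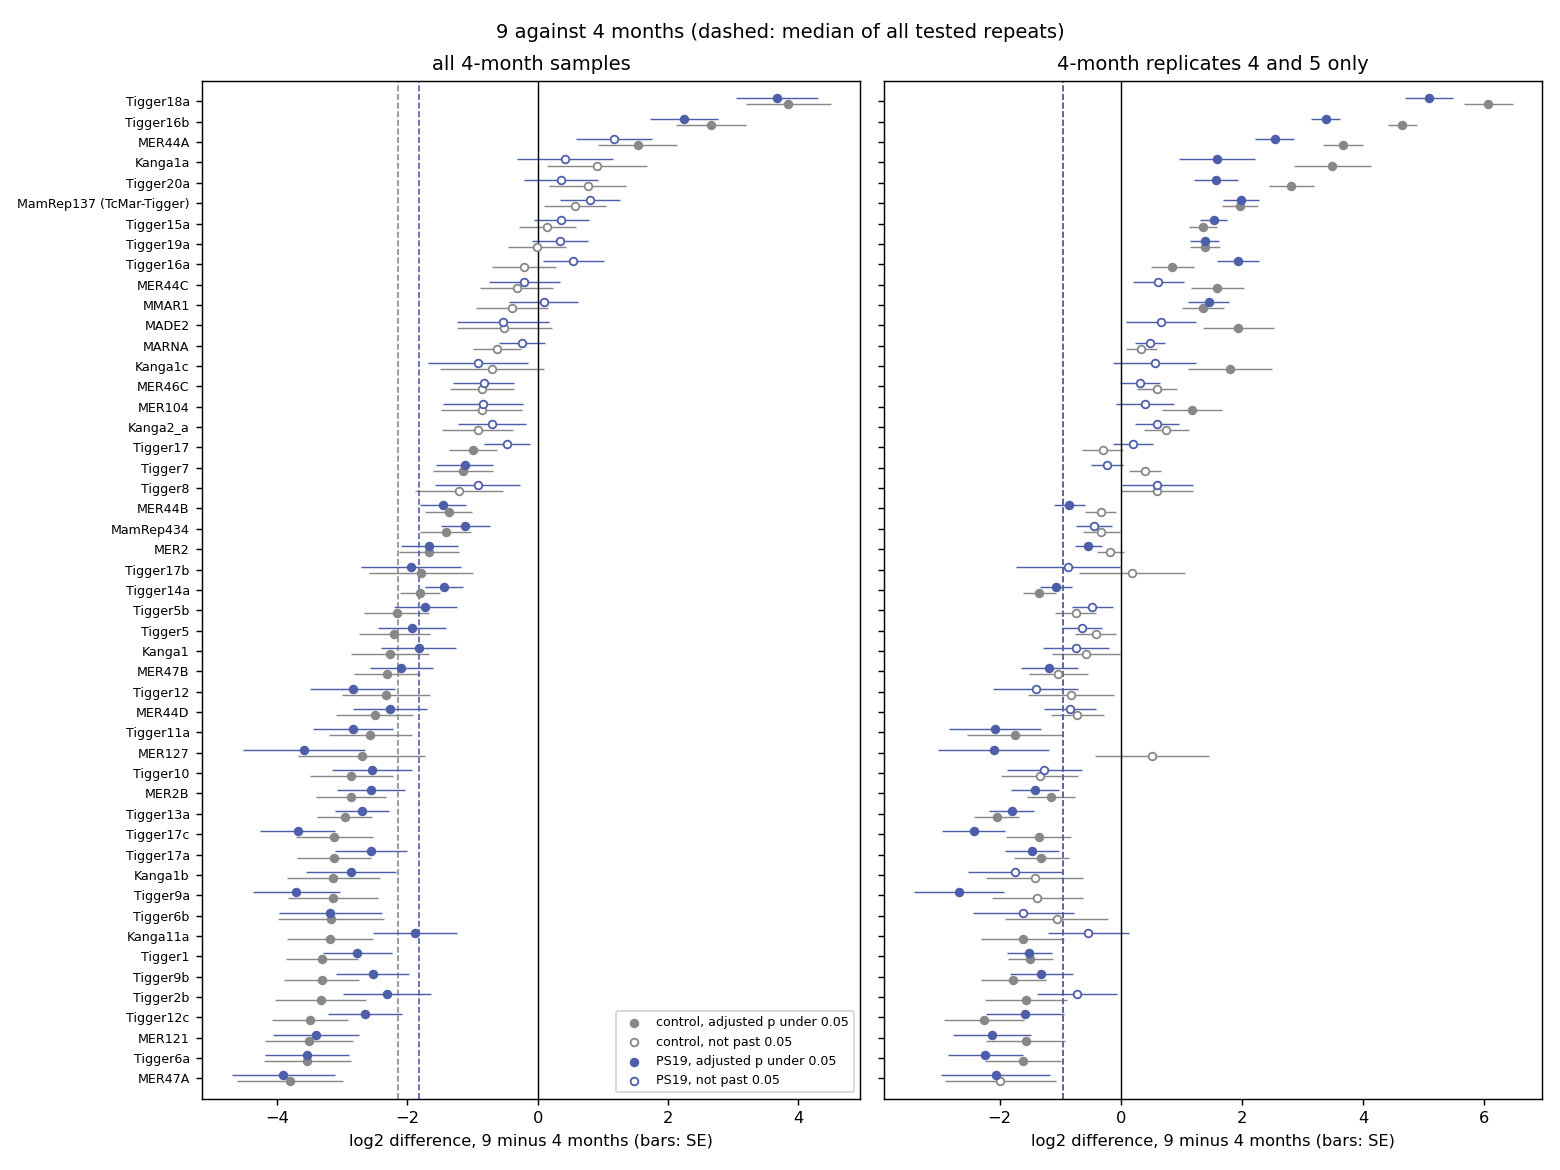
Log2 difference between 9 and 4 months of the 49 tested subfamilies in control (grey) and PS19 (blue), with standard errors, using all 4-month samples (left) or replicates 4 and 5 only (right); filled points passed an adjusted p of 0.05 and dashed lines are the medians of all tested repeats. Tigger18a, Tigger16b and MER44A are the top 3 in both panels in control, and leaving out replicates 1 to 3 moves the dashed lines from -2.14 and -1.83 to -0.96 and -0.95.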

How the data were processed

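Whole spinal cord RNA of 23 mouse samples in 4 groups was measured. The authors deposited a signal per repeat subfamily, which is reads over the size factor of the sample. Tools named without versions in the submitters' processing notes are DESeq2, STAR and Trimmomatic, with the build mm10. How reads were assigned to repeats, and what became of reads that map to many copies, is not given in the sources used here, so related subfamilies may share reads. All values were whole multiples of the value of 1 read, within 0.1% of the number of reads, which gave the reads behind them. For the highest counts this limit is wider than the rounding, so the check could not fail there. Each of the 23 columns carried the title of a sample, which left 0 unused. Groups follow the genotype and age labels, and replicates were numbered in accession order.

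Values were fitted as log2(value + 1) with limma 3.58.1 (R 4.3.3, empirical Bayes with a trend) over the 920 of 1135 subfamilies with a mean of at least 10. P-values were adjusted by Benjamini-Hochberg over all 920, with a threshold of 0.05. Differences on this scale understate those of low subfamilies. The genotype comparisons used the samples of 1 age, and the interaction and age comparisons all 23 samples with a mean per group. The latter fits shared a spread per subfamily between the ages, although the spread was wider at 4 months. edgeR 4.0.16 (on the deposited size factors) and DESeq2 1.42.0 (on its own) were run on the recovered reads. The other alternatives were a pseudocount of 5, no filter, a filter at 50, TMM scaling within repeats, other sets of samples, and leaving out each sample. No samples of a group had the same reads within sampling noise (chi-square per degree of freedom at least 3.80). Members, lists and tests were chosen with earlier results of these data known. Named were, per comparison, the 3 higher and 3 lower members with the smallest p, per family the 2 with the highest mean, and in families of at least 5 those with the lowest and highest spread. MER44A at 9 months, and the members in counts of 10 or fewer, were named after their values were seen.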

Additional observations from a re-analysis of the deposited data

Results flagged for a closer look

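Of 126 groups of values examined (each named member and each Tc1/mariner share, within a group of samples), 6 had a sample whose distance from its nearest neighbour was large for the range of its group. Chance gives about 1 in 20 groups. As percent of the DNA transposon signal, the Tc1/mariner elements stood at 17.7% in control replicate 4 of 4 months, where the next sample had 21.99%. The same share stood at 21.3% in PS19 replicate 4 of 9 months, next to 22.3%. PS19 replicate 1 of 9 months was high for Tigger17a, with 96.9 normalized reads and 53.7 in the next sample. It was also high for Tigger17c, with 21.0 and 10.97 in the next. Tigger17 was low in PS19 replicate 5 of 4 months, with 46.3, where the next sample had 160.0. Tigger9a was high in control replicate 4 of 9 months, with 13.3 and 5.49 in the next.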

How the results depend on the processing

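No paired analysis was possible because the labels carry no replicate numbers and the samples were numbered in accession order. At 9 months the count of called members was 0 in every fit run except DESeq2 and the fit without control replicate 3, with 1 each; leaving out each sample gave 0 to 1. At 4 months and for the interaction it was 0 in every fit run, each sample left out in turn included. For 9 against 4 months, leaving out each sample gave 31 to 41 calls in control and 30 to 36 in PS19. With a filter at 50, which tests 33 members, there were 22 and 20 (85.5% and 82.7% of all 648 repeats tested).

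TMM scaling within repeats turned the sign of these log2 differences. At 9 months Kanga2_a came to -0.0098, Kanga1a to -0.053 and Tigger7 to -0.038. At 4 months MARNA came to 0.00304, Kanga2_a to 0.022 and MER2 to 0.034. For the interaction MER121 came to -0.14, Kanga2_a to -0.032, MER2 to -0.25 and Tigger7 to -0.23. For 9 against 4 months in control, MARNA came to 1.36, MMAR1 to 1.59, Kanga2_a to 1.04, MER2 to 0.32 and Tigger7 to 0.84. In PS19, MARNA came to 1.49, Kanga2_a to 1.01, MER2 to 0.072 and Tigger7 to 0.61. Without replicates 1 to 3 of 4 months, MARNA (0.34), MMAR1 (1.36), Kanga2_a (0.75) and Tigger7 (0.40) turned in control, and MARNA (0.48) and Kanga2_a (0.60) in PS19. Among the 64 differences of named members checked, a pseudocount of 5 turned none. Over all 49 members it moved the count on the higher side from 27 to 24 at 4 months. For the interaction that count went from 32 to 37. The Tc1/mariner share without those replicates was 0.683% of repeat signal in control and 0.831% in PS19, and 19.8% and 21.9% of DNA transposon signal. The cause of these shifts was not tested. Without PS19 replicates 1 to 5 at 9 months, which leaves 2 PS19 samples, 0 members were called. The fits with TMM scaling and without replicates 1 to 3 together, of replicates 4 and 5 alone, and of the interaction without replicates 1 to 3 were added after seeing the data. At 9 months 12 of the 49 tested members had a mean below 10. There both few reads and the spread between samples limit what can be seen: for Tigger6b the spread was 1.30 (log2 SD) and counting error alone would give 0.48.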
